A study of Mus musculus with 8 samples.

Results

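Imprinted genes are expressed mainly from the copy inherited from 1 parent, and several of them regulate fetal and placental growth. H19, Dlk1, Meg3, Cdkn1c, Plagl1, Peg3, Mest, Grb10 and Ndn were examined here as 9 such growth-control genes of the 50578 genes counted. The list was drawn up with earlier results of these data known, its rows were then found by gene symbol with no threshold on any measured value, and each symbol matched 1 row of the count table. All 9 had enough reads to be tested, as did 15154 genes in all (30.0%).

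The RNA came from mouse embryonic fibroblasts (MEFs), primary connective-tissue cells grown from C57BL/6J embryos at E13.5 after the head, tail, limbs and organs had been removed. The cells were wild-type and at passages P3 to P5. They were left untreated (MEF), or received 10 µM Carbidopa, LY-364747 or CHIR-99021, each added after 2 h of attachment with medium changed every 3 days, and each group had 2 libraries. The treated libraries are labelled as hepatic-like cells. The length of treatment before RNA-seq is not stated in the sources used here. Carbidopa inhibits aromatic L-amino acid decarboxylase, the enzyme encoded by Ddc, while the target of CHIR-99021 is GSK3, a kinase that restrains Wnt signalling. LY-364747 is the spelling of the labels, and the study's methods name a TGF-beta receptor inhibitor whose code differs in 1 digit. No source says whether the libraries of a group came from separate embryos or cultures, so the p-values measure only the spread between these libraries.

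In imprinted clusters, a differentially methylated control region sets which parental copy is transcribed, and a noncoding RNA and protein-coding neighbours are often expressed from opposite copies. Dlk1, Plagl1, Peg3, Mest and Ndn are expressed from the paternal copy, and H19, Meg3, Cdkn1c and, in most tissues, Grb10 from the maternal copy. The read counts do not separate the parental copies. Dlk1 encodes a membrane ligand of the Notch family that restrains adipocyte differentiation, and Meg3 is the noncoding RNA of its cluster. H19 is the noncoding RNA that shares its control region with Igf2, the fetal insulin-like growth factor. Cdkn1c encodes the cyclin-dependent kinase inhibitor p57, and Plagl1 and Peg3 encode zinc-finger proteins that bind DNA. Mest encodes a hydrolase-like protein, Grb10 an adaptor that dampens insulin and insulin-like growth factor receptors, and Ndn the growth suppressor necdin.

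Upstream sequence is shown for Peg3, which changed most, and for Dlk1 and Meg3, which lie in 1 cluster and moved differently. The sequences are those of RefSeq on GRCm38.p6, whose table held 11 promoter windows (250 bases before to 50 after a start site) for 7 of the 9 genes. H19 and Cdkn1c had none. Peg3 lies on the minus strand of chromosome 7, and its start at position 6730419 is 164 bases from that of Usp29, a deubiquitinase gene read in the opposite direction. The stretch between both starts (chr7:6730420-6730582, minus strand) follows with its 5 CpG dinucleotides in capitals, and the GENCODE exons of Peg3 and Usp29 reach 12 and 5 bases into it.
Peg3: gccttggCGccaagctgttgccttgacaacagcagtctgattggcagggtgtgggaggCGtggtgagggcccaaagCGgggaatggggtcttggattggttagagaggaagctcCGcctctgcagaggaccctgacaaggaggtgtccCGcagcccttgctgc
The 250 bases before the Dlk1 start (chr12:109452573-109452822, plus strand) hold 8 CpG, again in capitals, and no annotated exon.
Dlk1: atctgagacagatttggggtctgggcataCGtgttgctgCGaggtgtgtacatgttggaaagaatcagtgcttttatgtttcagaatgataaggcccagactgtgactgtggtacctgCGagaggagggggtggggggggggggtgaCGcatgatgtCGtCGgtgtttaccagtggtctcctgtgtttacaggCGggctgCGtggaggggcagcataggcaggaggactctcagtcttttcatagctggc
The 250 bases before the Meg3 start (chr12:109540746-109540995, plus strand) are given with matches to TATAAA and CTTTGA on either strand in capitals, and also hold no annotated exon.
Meg3: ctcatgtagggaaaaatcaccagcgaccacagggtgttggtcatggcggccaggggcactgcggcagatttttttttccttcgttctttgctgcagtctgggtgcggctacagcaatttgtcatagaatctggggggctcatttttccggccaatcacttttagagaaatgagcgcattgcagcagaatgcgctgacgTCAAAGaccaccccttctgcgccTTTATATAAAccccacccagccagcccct

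TATAAA is the core of a TATA box, CTTTGA of the element read by the TCF and LEF factors of the Wnt pathway, and CAGACA of a SMAD element. Meg3 had TATAAA on its own strand at position -25 and on the opposite strand at -29, which overlap, counting the start as 0, and CTTTGA on the opposite strand at -52. No window of Peg3, Dlk1, Plagl1 or Ndn held any of these 3 or the E-box CAGCTG. Over 32851 mouse promoter windows of 300 bases, 13.6% held TATAAA, 16% CTTTGA, 21% CAGACA and 16.3% CAGCTG, on either strand. The windows of Plagl1 and Grb10 were the richest in CpG, with 26 and up to 45, against a median of 7 over all windows (quartiles 3 and 20).

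Each library held 15039566 to 20504338 counted reads. The 9 genes took 0.357% and 0.369% of the reads in MEF, 0.616% and 0.652% with Carbidopa, 0.665% and 0.695% with LY-364747, and 0.494% and 0.495% with CHIR-99021. The 2 Carbidopa libraries differed from each other more than those of the other groups (chi-square of 34.6 per degree of freedom, against 4.31 to 9.21). Levels below are CPM, the reads of a gene per 1000000 reads of the library, after TMM scaling, which corrects library sizes for differences in composition. Scaling by total counts alone shifted the centre of all genes (their median log2 fold change) from 0.04 to 0.29 for Carbidopa, from 0.03 to 0.25 for LY-364747 and from 0.04 to 0.26 for CHIR-99021, each against MEF. It also changed the split of calls, from 2732 higher and 2985 lower to 5542 and 1956 for Carbidopa, from 2081 and 2613 to 4232 and 1814 for LY-364747, and from 2835 and 3043 to 5115 and 2217 for CHIR-99021. Changes are therefore relative to the TMM centre, and a call of the 9 members that rests on it is named beside the gene. For neighbours and other listed genes it was not checked which calls rest on it.

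Cell type markers also differed between the groups. The summed level of 14 fibroblast markers was 38960 to 39423 CPM in MEF and 8186 to 12155 CPM in the treated libraries. Of the MEF sums, Fn1 alone gave 19267 and 18682 CPM. With Carbidopa, LY-364747 and CHIR-99021, 12, 12 and 11 of the 14 were lower, and 2, 2 and 2 were higher. Pdgfra and Twist2 were above MEF in all treated libraries. The 14 macrophage markers summed to 1310 and 1349 CPM in MEF, 389 and 408 with Carbidopa, 290 and 300 with LY-364747, and 98.1 and 104 with CHIR-99021, and 13, 13 and 14 of them were lower. The 12 hepatocyte markers summed to 0.452 to 1.18 CPM in every library, with 7 to 9 of the 12 at 0, so the defining genes of hepatocytes were at or near 0 in the libraries labelled hepatic-like. Cartilage markers summed to 224 and 241 CPM in MEF and 19.3 to 36.8 in treated libraries, but 200 and 220 CPM of the MEF sums were the collagen gene Col11a1, only 3 of the 10 were tested, and of these 1, 0 and 0 were higher and 2, 2 and 2 lower. Adipocyte markers summed to 377 and 405 CPM in MEF and 62.4 to 104 in treated libraries, of which the lipase gene Lpl alone gave 355 and 384 CPM in MEF. Of the 5 adipocyte markers tested, 1, 1 and 1 were higher and 2, 2 and 1 lower, and Lipe went from 4.61 and 5.36 CPM in MEF to 8.41 to 10.1 in treated libraries. Neural and glial markers summed to 44.3 and 45.1 CPM in MEF and 10.2 to 12.1 in treated libraries, with 2, 2 and 3 of 5 tested lower. In MEF 1 and MEF 2, Stmn2 gave 23.6 and 26.5 CPM of these sums and Tubb3 16.9 and 12.6. Skeletal muscle markers summed to 39.3 and 39.8 CPM in MEF and 8.48 to 19.5 in treated libraries, with 2, 2 and 1 of 3 tested lower. Des alone gave 31.3 and 30.5 CPM of the MEF sums, and Myod1, Myf5 and Myog had 0 or 1 reads in each MEF library. Endothelial markers summed to 17.7 and 20.9 CPM in MEF and 12.9 to 17.9 in treated libraries, with 1, 1 and 2 of 4 tested lower. Keratinocyte markers summed to 0.967 and 0.774 CPM in MEF, 3.34 and 6.58 with Carbidopa, 1.01 and 1.17 with LY-364747, and 3.28 and 3.37 with CHIR-99021, and 2, 0 and 1 of the 3 tested were higher. Krt18 alone gave 2.59 and 2.79 CPM of the CHIR-99021 sums. The part of these markers in the results below was not tested, and in bulk RNA fewer cells of a type and less RNA per cell cannot be told apart.

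By group mean per kilobase of exon, H19 was the most abundant of the 9 genes in every group and Mest the least. The length joins the exons of all annotated transcripts, such as 2460 bases for H19 and 13324 for Peg3, and the order depends on it. By CPM without length, Peg3 was above H19 with LY-364747, at means of 2564.5 and 1611.9. With LY-364747, the libraries of Mest (26.2 and 21.8 CPM per kilobase) overlapped those of Ndn (25.5 and 29.1), so the last place there is not beyond their spread. In MEF, the mean level per kilobase of exon was 523 CPM for H19, 107 for Grb10, 50.8 for Cdkn1c, 47.6 for Peg3, 41.1 for Dlk1, 31.0 for Meg3, 26.1 for Ndn, 20.8 for Plagl1 and 12.2 for Mest. The libraries overlapped between Cdkn1c (47.0 and 54.7) and Peg3 (45.6 and 49.6), so the order of this pair is not beyond their spread. Peg3 was second in each treated group, at 146, 192 and 131 CPM per kilobase with Carbidopa, LY-364747 and CHIR-99021. The second place therefore passed from Grb10 to Peg3 in the treated cells.

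**Figure D1:**
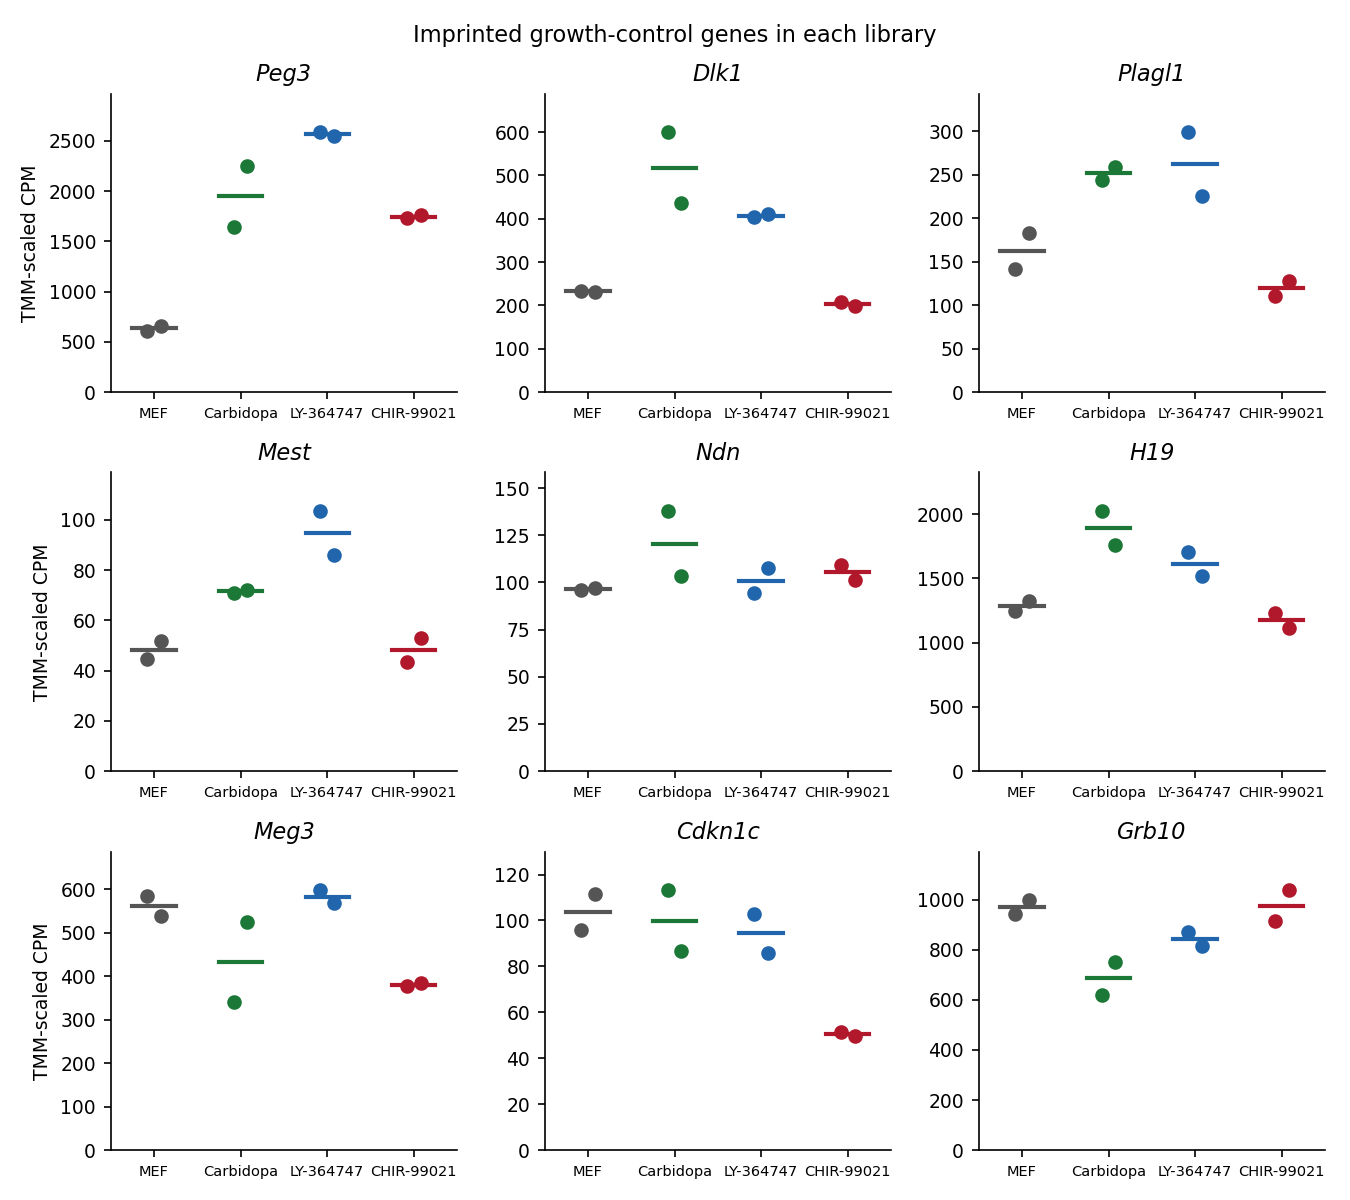
Each panel plots TMM-scaled CPM on a linear axis from 0 for 1 gene, with a point for each library and a bar at the mean of the 2 libraries of a group. Peg3 is above MEF in all 6 treated libraries, Dlk1, Plagl1 and Mest are above MEF in the Carbidopa and LY-364747 libraries, and Cdkn1c is low in the CHIR-99021 libraries.

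The comparison with MEF sets each treated group beside the untreated fibroblasts. No source used here names a vehicle control or says whether the groups were harvested together. Effects of a compound, its solvent and the time in culture therefore cannot be told apart. With Carbidopa, Peg3, Dlk1, Plagl1, Mest and H19 were higher than in MEF and Grb10 was lower. LY-364747 gave higher Peg3, Dlk1, Plagl1 and Mest and no lower member. CHIR-99021 gave higher Peg3 only, with lower Cdkn1c, Meg3 and Plagl1. Of all genes tested, 18.0% were called higher and 19.7% lower with Carbidopa, so the 5 higher and 1 lower of 9 members stand beside those shares. With LY-364747, 4 members were called higher and 0 lower, where 13.7% and 17.2% of all genes were. With CHIR-99021, 1 member was called higher and 3 lower, where 18.7% and 20.1% of all genes were. The median log2 fold change of the 9 members was 0.55, 0.32 and -0.13 for Carbidopa, LY-364747 and CHIR-99021, against 0.04, 0.03 and 0.04 for all genes tested. By parent of origin, 4 of the 5 paternally expressed members were higher with Carbidopa and 4 with LY-364747, whereas 1 was higher and 1 lower with CHIR-99021. Of the 4 maternally expressed members, 1 was higher and 1 lower with Carbidopa, none was called with LY-364747, and 2 were lower with CHIR-99021. All 3 comparisons share the MEF libraries.

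**Figure D2:**
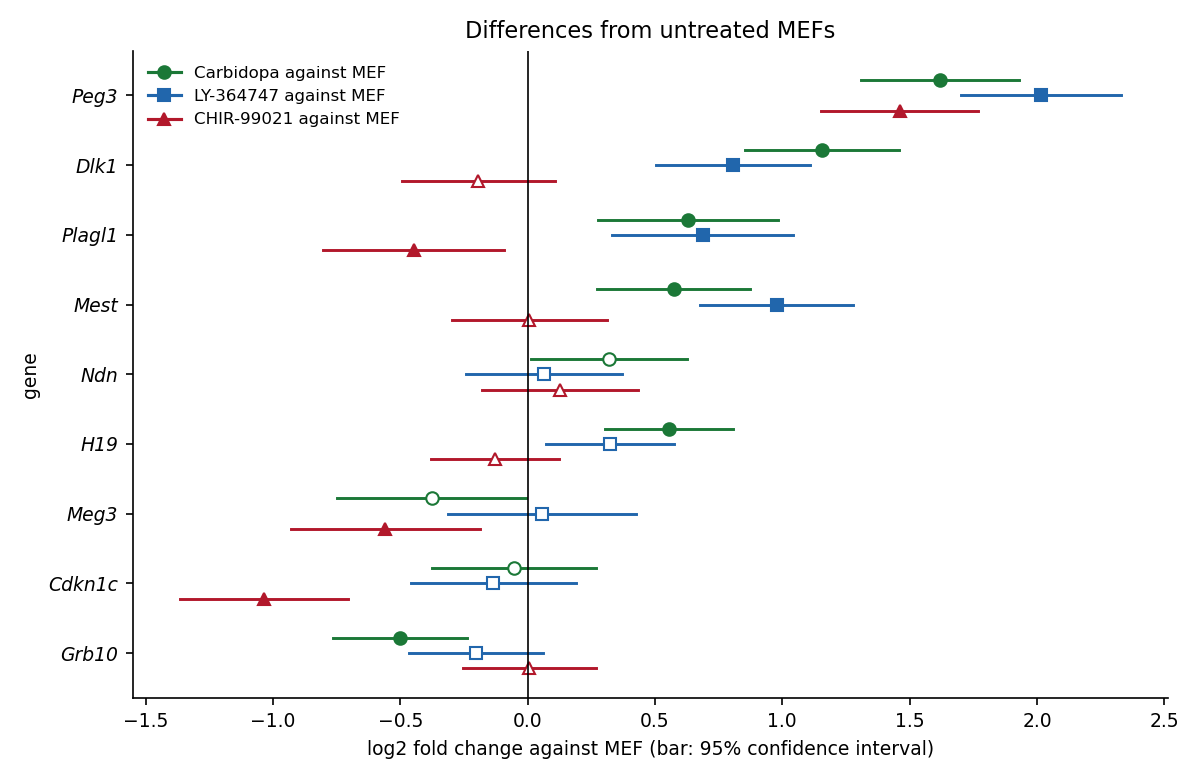
The plot gives the log2 fold change of each gene against MEF, with bars for the 95% confidence interval and filled symbols for an adjusted p under 0.05. Peg3 lies to the right of 0 for all 3 compounds, and Dlk1, Plagl1 and Mest do so for Carbidopa and LY-364747 but not for CHIR-99021.

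Peg3 (ENSMUSG00000002265, chr7:6703892-6730431, minus strand, GRCm38) was the member with the largest rise under each compound. Its level was 607 and 661 CPM in MEF, 1648 and 2248 with Carbidopa, 2584 and 2545 with LY-364747, and 1732 and 1758 with CHIR-99021. Every treated library was above both MEF libraries. The log2 fold change was 1.62 with Carbidopa (SE 0.14, adjusted p = 1.02e-05), 2.02 with LY-364747 (SE 0.14, adjusted p = 2.28e-06) and 1.46 with CHIR-99021 (SE 0.14, adjusted p = 2.00e-05). These are rises of 3.07-fold, 4.04-fold and 2.75-fold, and they were called under every alternative analysis.

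The neighbours of Peg3 rose with it. Usp29, which is read away from Peg3 across the stretch printed above, had 39 and 54 reads in MEF, 361 and 437 with Carbidopa, 508 and 435 with LY-364747, and 330 and 347 with CHIR-99021. The rise was 2.54 (SE 0.19), 3.01 (SE 0.19) and 2.61 (SE 0.19) on the log2 scale for the compounds in that order, with adjusted p-values of 3.05e-06, 9.30e-07 and 2.62e-06. Zim1, a zinc-finger gene of the same cluster expressed from the maternal copy, was at 47.6 and 52.8 CPM in MEF, 161 and 237 with Carbidopa, 302 and 274 with LY-364747, and 131 and 140 with CHIR-99021. On the log2 scale it rose by 1.99 (SE 0.17), 2.52 (SE 0.17) and 1.43 (SE 0.17), all of them called. Thus the paternally expressed Peg3 and Usp29 and the maternally expressed Zim1 were all higher with each compound, and no library of any treated group overlapped MEF. The ratio of Peg3 to Usp29 reads was 209 and 190 in MEF and 87 to 110 in the treated libraries.

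Dlk1 (ENSMUSG00000040856, chr12:109452823-109463336, plus strand) was at 234 and 231 CPM in MEF, 599 and 437 with Carbidopa, 404 and 410 with LY-364747, and 207 and 200 with CHIR-99021. The Carbidopa and LY-364747 libraries were all above MEF, and the CHIR-99021 libraries were both slightly below. On the log2 scale, the change was 1.16 with Carbidopa (SE 0.14, adjusted p = 9.61e-05) and 0.81 with LY-364747 (SE 0.14, adjusted p = 0.00115). With CHIR-99021 it was -0.19 (SE 0.14, adjusted p = 0.284), which passed only in the fit on the compared groups alone (adjusted p = 0.0224). The Carbidopa and LY-364747 calls held under every alternative analysis.

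Meg3 (ENSMUSG00000021268, chr12:109541001-109571726, plus strand), the maternally expressed noncoding RNA of the same cluster, did not follow Dlk1. Its level was 584 and 537 CPM in MEF, 340 and 524 with Carbidopa, 597 and 569 with LY-364747, and 377 and 384 with CHIR-99021. The Carbidopa libraries were far apart, with 1 near the CHIR-99021 libraries and 1 just below MEF. Relative to MEF, its log2 value was -0.56 with CHIR-99021 (SE 0.17, adjusted p = 0.0232), -0.38 with Carbidopa (SE 0.17, adjusted p = 0.101) and 0.06 with LY-364747 (SE 0.17, adjusted p = 0.834). The CHIR-99021 call was lost without any 1 of its 4 libraries (MEF 1 or 2, CHIR-99021 1 or 2), with log2 fold changes of -0.62 to -0.50 and adjusted p-values of 0.0756 to 0.132, and under total-count scaling (-0.34, adjusted p = 0.107). Meg3 was called lower with Carbidopa without Carbidopa library 2 (-0.72, adjusted p = 3.42e-05) and with no filter on low counts (-0.36, adjusted p = 0.0130). The ratio of Dlk1 to Meg3 reads was 0.401 and 0.430 in MEF, 1.76 and 0.835 with Carbidopa, 0.676 and 0.722 with LY-364747, and 0.549 and 0.520 with CHIR-99021.

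The other genes of the Dlk1-Dio3 cluster divided in the same comparisons. Rian, a noncoding RNA transcribed from the maternal copy like Meg3, was at 794 and 829 CPM in MEF, 559 and 640 with Carbidopa, 726 and 643 with LY-364747, and 418 and 520 with CHIR-99021. It was lower with Carbidopa (log2 fold change -0.44, SE 0.13, adjusted p = 0.0218) and CHIR-99021 (-0.79, SE 0.13, adjusted p = 8.01e-04), and its value with LY-364747 was -0.25 (adjusted p = 0.174). Mirg, the maternal microRNA host transcript, was lower with CHIR-99021 (-0.69, SE 0.17, adjusted p = 0.00785), with values of -0.07 and 0.07 for Carbidopa and LY-364747. Rtl1, a retrotransposon-derived gene expressed from the paternal copy, had 97 and 123 reads in MEF, 47 and 74 with Carbidopa, 145 and 114 with LY-364747, and 55 and 46 with CHIR-99021. It was lower with Carbidopa (-1.42, SE 0.25, adjusted p = 0.00162) and CHIR-99021 (-1.38, SE 0.26, adjusted p = 0.00208), so its reads did not move with those of Dlk1. The strand setting of the counts is not given, so the strand and parental copy of the Rtl1 reads are not known. Dio3, the thyroid hormone-inactivating deiodinase, had 0 reads in MEF 1 and MEF 2, 33 and 23 for Carbidopa, 15 and 17 with LY-364747, and 9 and 2 with CHIR-99021. Against a floor of 3 reads per MEF library it was at least 6.3-fold higher with Carbidopa and at least 4.19-fold higher with LY-364747 (adjusted p = 0.00150 and 0.00410). With CHIR-99021 its mean was 1.52 times the floor (adjusted p = 0.0290), but CHIR-99021 library 2 (0.116 CPM) lay below that floor (0.208 CPM).

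H19 (ENSMUSG00000000031, chr7:142575529-142578143, minus strand) was at 1247 and 1326 CPM in MEF, 2021 and 1759 with Carbidopa, 1708 and 1516 with LY-364747, and 1235 and 1118 with CHIR-99021. Both the Carbidopa and the LY-364747 libraries lay above MEF. With Carbidopa, H19 was higher by 0.55 on the log2 scale (SE 0.11, adjusted p = 0.00365). With LY-364747 it was 0.32 (SE 0.11), which missed the threshold at an adjusted p of 0.0522 and passed it with DESeq2 (0.0438), with no filter (0.0155), with the compared groups alone (0.00166) and under total-count scaling (0.00373). With CHIR-99021 it was -0.13 (SE 0.11, adjusted p = 0.395). Igf2, the paternally expressed neighbour, was at 566 and 587 CPM in MEF, 409 and 527 with Carbidopa, 534 and 463 with LY-364747, and 249 and 275 with CHIR-99021. It was lower with CHIR-99021 (log2 fold change -1.14, SE 0.13, adjusted p = 9.34e-05), and its values with Carbidopa (-0.30) and LY-364747 (-0.21) did not pass. The ratio of H19 to Igf2 reads was 2.21 and 2.26 in MEF and 3.20 to 4.95 in all treated libraries. H19 was higher with Carbidopa, whereas Igf2 was lower with CHIR-99021, and no other call was made on the pair against MEF.

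Cdkn1c (ENSMUSG00000037664, chr7:143458339-143461050, minus strand) was at 95.8 and 112 CPM in MEF, 113 and 86.6 with Carbidopa, 103 and 86.1 with LY-364747, and 51.2 and 49.9 with CHIR-99021. The CHIR-99021 libraries were below all 6 others, which overlapped one another. CHIR-99021 gave a log2 fold change of -1.04 (SE 0.15, adjusted p = 3.54e-04), a level of 0.488 times that in MEF, and it was called under every alternative analysis. The values with Carbidopa (-0.06, 95% interval -0.38 to 0.27) and LY-364747 (-0.13, -0.46 to 0.19) were not called. Exons of Gm44732, on the opposite strand, overlap 30.7% of the Cdkn1c exon bases, and that gene had 0 reads in 7 libraries and 2 reads in LY-364747 library 2. In the same CHIR-99021 libraries, 14 of 16 proliferation genes were lower than in MEF, with a median log2 fold change of -1.57, against 8 of 16 with Carbidopa and 3 of 16 with LY-364747. The shares of all genes called lower were 20.1%, 19.7% and 17.2%. The replication helicase gene Mcm2 was higher with CHIR-99021 (0.73, SE 0.11, adjusted p = 6.82e-04), and Mcm5 was not called (-0.30). Among them, Top2a, a topoisomerase of dividing cells, fell by 1.90 on the log2 scale with CHIR-99021, the proliferation marker Mki67 by 2.25 and cyclin A2 (Ccna2) by 2.02.

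Of 13 other genes listed on distal chromosome 7, 9 were tested, and 4, 2 and 3 were higher with Carbidopa, LY-364747 and CHIR-99021, with Igf2 the 1 lower, for CHIR-99021. Beside them, 18.0%, 13.7% and 18.7% of all genes were called higher and 19.7%, 17.2% and 20.1% lower. Tssc4 was higher with Carbidopa (log2 fold change 0.78, SE 0.21) and CHIR-99021 (0.70, SE 0.21), and the tetraspanin Cd81 with Carbidopa (0.32, SE 0.10) and LY-364747 (0.31, SE 0.10). Osbpl5, a lipid transfer protein gene, was higher with Carbidopa (0.37) and CHIR-99021 (0.38), and the histone chaperone gene Nap1l4 with CHIR-99021 (0.39, SE 0.12). Slc22a18 was called with none (0.42, 0.56 and -0.28). Kcnq1ot1, the paternal noncoding RNA of the Cdkn1c domain, was not called (-0.45, 0.63 and -0.20), and its libraries overlapped MEF for Carbidopa and CHIR-99021. Ascl2, a transcription factor of the placenta, had 0 and 2 reads in MEF, 45 and 22 with Carbidopa, 16 and 13 with LY-364747, and 8 and 1 with CHIR-99021, and was called higher for Carbidopa (adjusted p = 0.00527) and LY-364747 (adjusted p = 0.0335).

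Plagl1 (ENSMUSG00000019817, chr10:13060504-13131694, plus strand) was the only member called higher with 2 compounds and lower with the third. Its level was 142 and 183 CPM in MEF, 244 and 259 with Carbidopa, 299 and 225 with LY-364747, and 111 and 128 with CHIR-99021. No treated library lay within the MEF range, but the MEF libraries were themselves apart. The log2 fold change was 0.63 with Carbidopa (SE 0.16, adjusted p = 0.0114), 0.69 with LY-364747 (SE 0.16, adjusted p = 0.00790) and -0.45 with CHIR-99021 (SE 0.16, adjusted p = 0.0487). Without MEF library 1, the Carbidopa and LY-364747 values were 0.46 (adjusted p = 0.119) and 0.51 (adjusted p = 0.0980), and without LY-364747 library 1 the latter was 0.47 (adjusted p = 0.0975). The CHIR-99021 call was lost without MEF library 2 (-0.26, adjusted p = 0.373), CHIR-99021 library 1 (-0.34, adjusted p = 0.279) or CHIR-99021 library 2 (-0.55, adjusted p = 0.0747), and under total-count scaling (-0.23, adjusted p = 0.235). Phactr2, a neighbour of Plagl1, was higher with Carbidopa (0.45, SE 0.16) and LY-364747 (0.73, SE 0.16), and its value with CHIR-99021 was 0.06 (adjusted p = 0.793).

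Mest (ENSMUSG00000051855, chr6:30723547-30748465, plus strand) was at 44.5 and 51.7 CPM in MEF, 71.0 and 72.1 with Carbidopa, 103 and 86.2 with LY-364747, and 43.6 and 53.0 with CHIR-99021. The CHIR-99021 libraries spanned the MEF range, and the other 4 treated libraries were above it. Against MEF, its log2 value was 0.57 with Carbidopa (SE 0.13, adjusted p = 0.00783), 0.98 with LY-364747 (SE 0.13, adjusted p = 3.01e-04) and 0.01 with CHIR-99021 (SE 0.14, 95% interval -0.30 to 0.31). The Carbidopa call was lost without MEF library 1 (0.47, adjusted p = 0.0903). Copg2, a coatomer gene on the opposite strand whose exons overlap 23.1% of the Mest exon bases, was at 59.6 and 60.5 CPM in MEF and 48.8 to 53.6 in treated libraries. Its log2 fold change was -0.28 with LY-364747 (SE 0.09, adjusted p = 0.0494), opposite to that of Mest.

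Grb10 (ENSMUSG00000020176, chr11:11930508-12038683, minus strand) was at 944 and 1000 CPM in MEF, 621 and 751 with Carbidopa, 872 and 817 with LY-364747, and 916 and 1037 with CHIR-99021. The Carbidopa libraries were the lowest, and the CHIR-99021 libraries spanned those of MEF. The log2 fold change with Carbidopa was -0.50 (SE 0.12, adjusted p = 0.00788), which was lost without MEF library 2 (-0.47, adjusted p = 0.0769) and under total-count scaling (-0.25, adjusted p = 0.0832). The values with LY-364747 and CHIR-99021 were -0.20 (adjusted p = 0.227) and 0.01 (adjusted p = 0.971), the former called only in the fit on the compared groups alone (adjusted p = 0.0221). Cobl, an actin nucleator next to Grb10, was lower with all 3 compounds (-0.95, -0.70 and -1.19, each SE 0.16 to 0.17). Ddc, which lies beside Grb10 and encodes the enzyme that Carbidopa inhibits, had 15 and 22 reads in MEF, 34 and 26 with Carbidopa, 23 and 27 with LY-364747, and 33 and 62 with CHIR-99021, and was called with CHIR-99021 only (1.11, SE 0.38, adjusted p = 0.0416).

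Ndn (ENSMUSG00000033585, chr7:62346569-62350262, plus strand), a gene of 1 exon, was called in no comparison. Its level was 95.8 and 97.3 CPM in MEF, 138 and 103 with Carbidopa, 94.2 and 108 with LY-364747, and 109 and 101 with CHIR-99021. The log2 fold change was 0.32 with Carbidopa (95% interval 0.01 to 0.63, adjusted p = 0.0915), 0.06 with LY-364747 (-0.24 to 0.37) and 0.13 with CHIR-99021 (-0.18 to 0.43). Without Carbidopa library 2 it was called higher with Carbidopa (0.51, adjusted p = 0.00123), under total-count scaling likewise (0.57, adjusted p = 0.00874), and also with no filter on low counts (0.34, adjusted p = 0.0362). In the same Prader-Willi domain, Snrpn, which encodes a splicing protein, was higher with Carbidopa (0.63, SE 0.16, adjusted p = 0.0113), Peg12 with CHIR-99021 (0.66, SE 0.21, adjusted p = 0.0296), and the phospholipid transporter Atp10a was lower with all 3 compounds (-1.58, -1.27 and -1.45). Ube3a, a ubiquitin ligase gene, was called with none (-0.32, -0.15 and -0.07). Over all clusters, 25 of 32 listed neighbours were tested, and 9 were higher and 4 lower with Carbidopa, 6 and 3 with LY-364747, and 8 and 6 with CHIR-99021. The all-gene shares higher and lower were 18.0% and 19.7%, 13.7% and 17.2%, and 18.7% and 20.1% in that order.

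**Figure D3:**
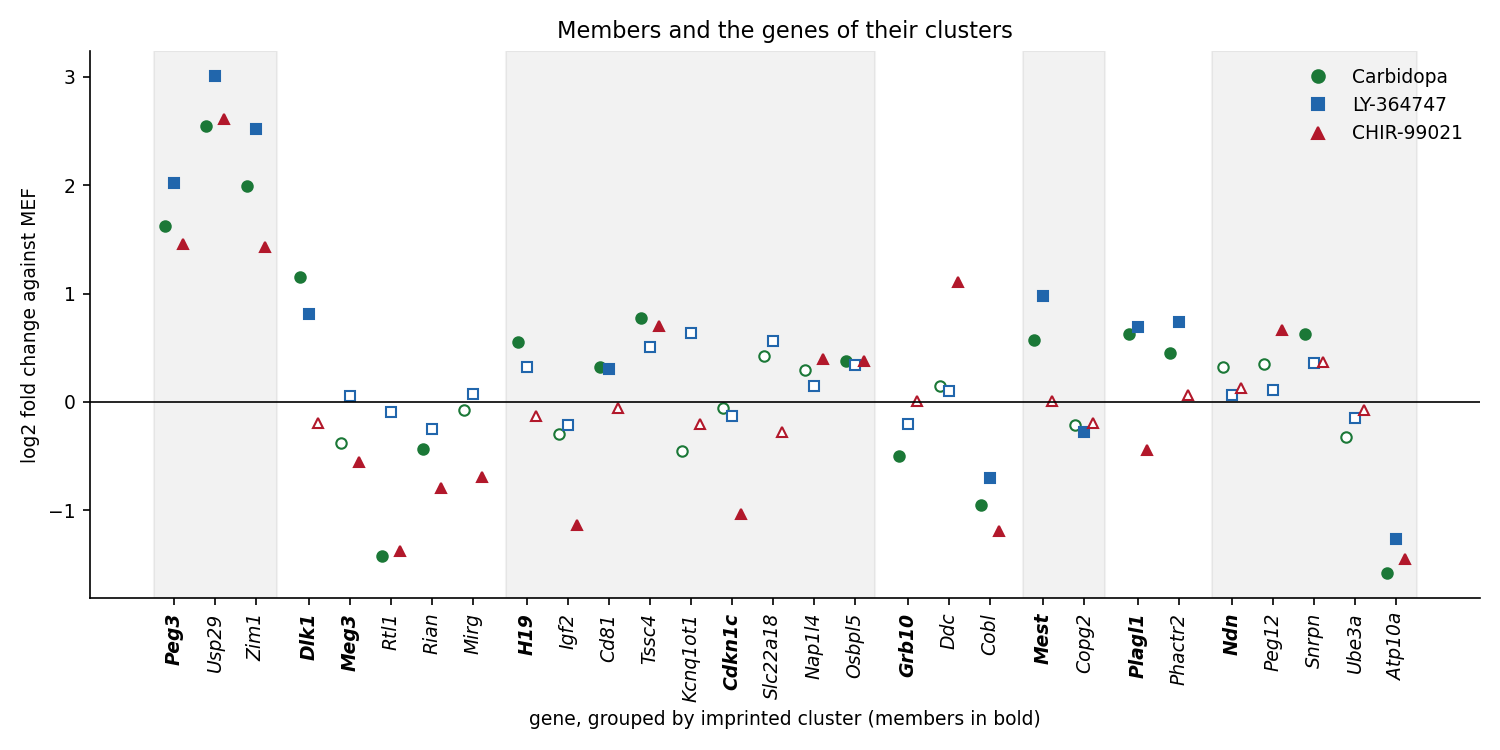
The plot gives the log2 fold change against MEF of the 9 genes (bold) and of genes from their clusters, with filled symbols for an adjusted p under 0.05. The 3 genes of the Peg3 cluster lie above 0 for every compound. For CHIR-99021, Meg3, Rian, Mirg and Rtl1 are called below 0, and Dlk1 lies below 0 but is not called.

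The compounds were also compared with one another. They are not structural analogs, and each was used at 10 µM. Relative to Carbidopa, CHIR-99021 gave lower H19, Dlk1, Cdkn1c, Plagl1 and Mest and higher Grb10. Of all genes, 6.62% were called higher and 8.08% lower in this comparison, and of the members 1 and 5. Dlk1 differed most (log2 fold change -1.35, SE 0.14, adjusted p = 1.87e-04), followed by Plagl1 (-1.08, SE 0.16, adjusted p = 0.00184) and Cdkn1c (-0.98, SE 0.15, adjusted p = 0.00193). H19 differed by -0.68 (SE 0.11, adjusted p = 0.00329), Mest by -0.57 (SE 0.13, adjusted p = 0.0189) and Grb10 by 0.51 (SE 0.12, adjusted p = 0.0175). The Mest call was lost without CHIR-99021 library 1 (-0.43, adjusted p = 0.200), and the Grb10 call without CHIR-99021 library 1 (0.60, adjusted p = 0.0505) or library 2 (0.42, adjusted p = 0.120). Fitted on the compared groups alone, Mest (adjusted p = 0.0605) and Grb10 (adjusted p = 0.102) were not called. Peg3 was not called (-0.16, 95% interval -0.46 to 0.14), nor was Meg3 (-0.18, -0.55 to 0.19) or Ndn (-0.19, -0.50 to 0.11). Without Carbidopa library 1, Meg3 (-0.46, adjusted p = 0.00240) and Peg3 (-0.36, adjusted p = 0.00740) were called lower, and without Carbidopa library 2 Ndn was (-0.38, adjusted p = 0.0127).

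Relative to LY-364747, CHIR-99021 gave 7 lower members and 0 higher, where 7.69% and 6.45% of all genes were called lower and higher. The 7 were Plagl1 (log2 fold change -1.13, SE 0.16, adjusted p = 0.00135), Dlk1 (-1.001, SE 0.14, adjusted p = 0.00106), Mest (-0.97, SE 0.13, adjusted p = 0.00115), Cdkn1c (-0.90, SE 0.15, adjusted p = 0.00314), Meg3 (-0.62, SE 0.17, adjusted p = 0.0348), Peg3 (-0.56, SE 0.14, adjusted p = 0.0231) and H19 (-0.45, SE 0.11, adjusted p = 0.0244). The calls of H19, Meg3 and Peg3 were each lost when any 1 of the 4 libraries was left out, where the log2 fold changes were -0.53 to -0.37 for H19, -0.64 to -0.59 for Meg3 and -0.56 to -0.54 for Peg3. The other 4 were called without any 1 library. Grb10 (0.21, 95% interval -0.05 to 0.47) and Ndn (0.06, -0.24 to 0.37) were not called.

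Between LY-364747 and Carbidopa, 0 of the 9 members were called, and 0.0132% of all genes were called higher and 0% lower. By edgeR, 5 of the 9 members and 1367 of 15154 genes had an unadjusted p under 0.05, and DESeq2 also called 0 members. The largest values were 0.43 for Meg3 (95% interval 0.06 to 0.80), 0.40 for Mest (0.11 to 0.70), 0.40 for Peg3 (0.09 to 0.70) and -0.35 for Dlk1 (-0.65 to -0.05), so these genes were not shown to respond alike. With 1 library left out at a time, the value ranged from 0.15 to 0.78 for Meg3 and from 0.19 to 0.64 for Peg3. It ranged from -0.56 to -0.10 for Dlk1, 0.17 to 0.44 for Grb10, -0.45 to -0.04 for Ndn and -0.33 to -0.13 for H19. Without Carbidopa library 2 the values were 0.78 for Meg3, 0.64 for Peg3, 0.44 for Grb10, -0.56 for Dlk1, -0.45 for Ndn and -0.33 for H19. Mest ranged from 0.27 to 0.53, and its Carbidopa libraries were alike (71.0 and 72.1 CPM). With no filter on low counts, Meg3 (0.42, adjusted p = 0.0377) and Peg3 (0.38, adjusted p = 0.0385) were called. In that setting 329 of 26825 genes were called, against 2 in the main fit.

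**Figure D4:**
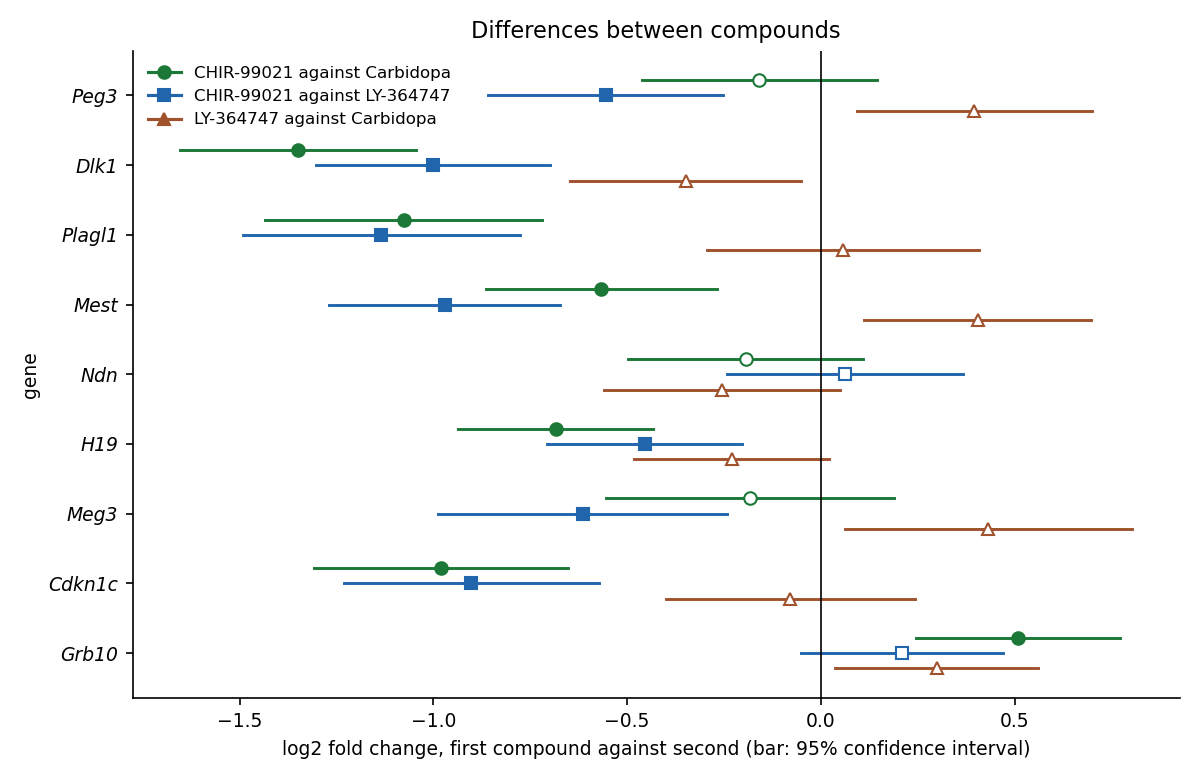
The plot gives the log2 fold change of each gene between compounds, with bars for the 95% confidence interval and filled symbols for an adjusted p under 0.05. Most filled symbols are CHIR-99021 differences to the left of 0, and no LY-364747 against Carbidopa symbol is filled.

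Of 23 tested imprinted genes outside these clusters, 4 were higher and 5 lower with Carbidopa, 4 and 4 with LY-364747, and 6 and 5 with CHIR-99021, and their median log2 fold change was 0.03, -0.07 and 0.02. These counts stand beside all-gene shares of 18.0% higher and 19.7% lower, 13.7% and 17.2%, and 18.7% and 20.1%. Zdbf2 was lower with all 3 compounds (-1.69, -1.18 and -0.86). Gab1, a signalling adaptor, was higher with all 3 (0.46, 0.60 and 0.48), as was the splicing factor gene Zrsr1 (0.96, 0.86 and 1.02). Of 11 tested genes that protect imprints or add, keep or remove DNA methylation (the Tet enzymes oxidise it), 3, 2 and 4 were higher and 0, 0 and 2 lower, beside the same all-gene shares, and none of Tet1, Tet2 and Tet3 was called. Zfp57, a zinc-finger protein that binds methylated imprinting control regions, was at 18.9 and 15.7 CPM in MEF and 27.5 to 29.5 CPM in all 6 treated libraries (log2 fold changes 0.69, 0.77 and 0.72, adjusted p = 0.00154, 7.93e-04 and 0.00114). Zfp445, which acts with it, was higher by 0.30, 0.48 and 0.54. Uhrf1, which guides maintenance methylation at replication, was lower with CHIR-99021 (-0.94, SE 0.19, adjusted p = 0.00288).

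Of 13 tested genes listed for products that interact with those of the 9 genes, 1 was higher and 4 lower with Carbidopa, 1 and 3 with LY-364747, and 0 and 5 with CHIR-99021, where 18.0% and 19.7%, 13.7% and 17.2%, and 18.7% and 20.1% of all genes were. Igf1r, the insulin-like growth factor receptor that Grb10 binds, was at 357 and 360 CPM in MEF and 132 to 214 CPM in treated libraries, with log2 fold changes of -1.11, -0.76 and -0.85. Cyclin B1 (Ccnb1) was also lower with all 3 compounds (-0.74, -0.82 and -2.27), the last in the CHIR-99021 libraries in which Cdkn1c was lower. Ccnb1, Ccna2 and Cdk1 are also among the proliferation genes counted above, so the lists are not separate observations.

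Across the 8 libraries, H19 and Dlk1 had the most similar profiles among the members (Pearson r = 0.971 on log2 CPM), followed by Plagl1 and Mest (0.899). Grb10 ran opposite to Dlk1 (-0.916) and H19 (-0.906), and Meg3 was not correlated with Dlk1 (0.024) or H19 (0.009). These values describe 4 groups of 2 libraries that share treatments, so they are not evidence of 8 independent points. Among all genes tested, the 3 profiles nearest to Peg3 were Rev3l, Pik3r3 and Zfp937 (r = 0.994 to 0.996), and those nearest to Dlk1 were Pdha1, Ctsa and S100a13 (0.993 to 0.997). For Cdkn1c they were Id4, Vkorc1 and Wfdc17 (0.986 to 0.991), for H19 Chd3os, Pccb and Pdha1 (0.977 to 0.990), and for Mest 2610008E11Rik, BC037032 and Mir99ahg (0.980 to 0.995). For Plagl1 they were Clk1, Cep128 and Prps2 (0.980 to 0.987), for Grb10 Katnal1, Rlim and Zfp281 (0.980 to 0.987), for Meg3 Pan2, Abcc5 and Gm45407 (0.983 to 0.985), and for Ndn Cox6a1, D6Wsu163e and Rps9 (0.986 to 0.992).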

How the data were processed

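The samples were RNA-seq libraries of untreated MEFs and of MEFs given Carbidopa, LY-364747 or CHIR-99021. The authors mapped reads to mm10 with STAR 2.4.2a and deposited featureCounts counts of reads per gene, whole numbers without normalization. The annotation release and strand setting are not given in the sources used here, so reads of overlapping genes on opposite strands may not have been told apart. Exons of Copg2 overlap Mest, those of Gm44732 overlap Cdkn1c and those of Gm26906 overlap Meg3. Groups and replicate numbers were taken from the labels.

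Of 50578 identifiers, 50354 (99.6%) matched GENCODE release M21 of GRCm38, which gave positions and exon lengths. Groups were compared in R 4.3.3 with edgeR 4.0.16 (TMM, filterByExpr, quasi-likelihood test, no covariate beside group, 1 fit over the 8 libraries), with Benjamini-Hochberg adjustment over 15154 genes and a threshold of 0.05. The SE is the absolute log2 fold change divided by the square root of F, and the coefficient of biological variation was 11.0%. Levels are CPM with TMM-scaled library sizes, and correlations used log2 CPM with a prior count of 2. A count of 0 was given a floor of 3 reads per library, and floors cover counting error only. The fit was tested on simulated data. The replicates of each group differed by more than sampling noise, so none was counted as a repeat deposit.

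The named genes were the 9 members, genes of their clusters with at least 10 reads in a library, up to 3 genes of smallest p in each list, and the 3 profiles most correlated with each member. Tspan32, Phlda2, Mkrn3 and Snurf also reached that read count, with at most 16, 11, 32 and 46 reads in a library, but are not described above. The members and lists were chosen with earlier results of these data known. Alternatives were DESeq2 1.42.0, RLE size factors, no filter, at least 10 reads in every library, the compared groups alone, a replicate block, leaving out each library, CPM without TMM and, chosen after seeing the data, total-count scaling.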

Additional observations from a re-analysis of the deposited data

How the results depend on the processing

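Over the 9 genes, 6 comparisons and 11 alternatives, 539 of 594 log2 fold changes kept their side of the threshold, 33 lost a call, 22 gained a call and 0 called values turned direction. Under total-count scaling, chosen after seeing the data, the 9 genes had median changes (log2) of 0.81 for Carbidopa, 0.55 for LY-364747 and 0.086 for CHIR-99021, each against MEF, and the members called for CHIR-99021 numbered 2 in place of 4. This scaling leaves out the TMM factors, which were lower in MEF than in treated libraries. With no filter on low counts, 2 members were called between LY-364747 and Carbidopa in place of 0, and 329 of 26825 genes in all in place of 2. Leaving out each library in turn, the members called ranged from 2 to 3 for CHIR-99021 against MEF, were 4 each time for CHIR-99021 against LY-364747, and ranged from 0 to 6 for LY-364747 against Carbidopa, with 6 without Carbidopa library 2. The median log2 fold change ranged from -0.61 to -0.43 for CHIR-99021 against Carbidopa and from -0.15 to 0.24 for LY-364747 against Carbidopa. A library left out leaves 1 in its group, which is then assumed to vary like the other groups. The share of all genes called in those fits is not given here, so the member counts carry no comparison with it.

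With the replicate number as a block, members called were 6, 4 and 3 for Carbidopa, LY-364747 and CHIR-99021 against MEF, 6 and 7 for CHIR-99021 against Carbidopa and LY-364747, and 0 between the last pair. The 1 call lost was Plagl1 for CHIR-99021 against MEF (-0.45, adjusted p = 0.0560). Libraries of the same number did not deviate together (correlations -0.161 to 0.128), so the numbers were not read as pairs. Without TMM, 17 of 36 levels per kilobase moved by more than 1 SD, by about -11.4% in MEF and 2.9% to 5.4% in treated groups. With 2 libraries per group, 1 library can decide a call, and the cause of each change was not tested.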
